A study of Homo sapiens with 6 samples.

Results

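Genes of mucins and mucus proteins were followed by RNA sequencing in PC3 cells, an established human prostate cancer line: MUC5B, MUC5AC, MUC6, MUC1, FCGBP, DMBT1, TFF1 and AGR2. They are 8 of the 12227 genes listed in the deposited table, and all 8 have a row. They were picked by name for a strong decrease seen in these same libraries, so their differences between groups are given as a description, with no test. One group had 3 libraries from cells with short hairpin RNA (shRNA) against VprBP, with the genotype given as VprBP knockdown. The other had 3 libraries from cells with control shRNA, with the genotype given as WT. No drug or time point is named, and what sets libraries of a group apart (hairpin, clone, culture or repeat preparation) is left unsaid in the labels, so p-values measure only the spread between these libraries, which may be technical. VprBP is the product of DCAF1, a substrate receptor of a ubiquitin ligase that has also been described as a histone kinase.

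Mucus is a hydrated gel built from very large glycoproteins, the gel-forming mucins, which are folded in the endoplasmic reticulum, linked to each other by disulfide bonds, covered with O-linked sugars in the Golgi and stored in granules. MUC5B and MUC5AC form airway mucus, MUC5AC and MUC6 form gastric mucus, and all of them lie with MUC2 in a cluster on chromosome 11. MUC1 is a mucin of another kind, anchored in the membrane. FCGBP, DMBT1 and TFF1 are secreted with mucins, and AGR2 is a disulfide isomerase that mucin-making cells use for folding.

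The values are the authors' scaled signal, in which 1 estimated read is worth between 0.0254 and 0.0439 units, and levels are compared between groups for each gene. The estimated depth over listed genes was 23029431 to 39633827 reads per VprBP shRNA library and 22981865 to 32293135 per control shRNA library. DCAF1 was 38.5, 41.1 and 40.2 in the VprBP shRNA libraries, against 79.4, 78.5 and 78.7 in the control shRNA libraries, with a log2 difference of -0.97 (SE 0.05, limma adjusted p = 3.56e-11). All 8 markers of PC3 and epithelial identity were listed, with a summed signal of 3282 to 3353 in VprBP shRNA libraries and 2869 to 2939 in control shRNA libraries, and they moved in both directions. By limma, 4 rose (KRT8 1.64-fold, KRT18 1.52-fold, EPCAM 1.11-fold and the mesenchymal marker VIM 4.06-fold), 3 fell (CLDN4 1.35-fold, CLDN7 1.13-fold and CDH1 1.06-fold), and KRT19 was not called. VIM was at 67.2 to 68.5 in VprBP shRNA libraries and 15.3 to 17.8 in control shRNA libraries, and the part of these markers in the results on mucus genes was not tested. Of 10 luminal prostate markers, 4 were listed, summing to 112 to 119 with VprBP shRNA and 129 to 135 with control shRNA, and KLK2 and KLK3 were not analysed here. Of markers of mucus-making cells, 1 of 9 intestinal goblet genes (FCGBP), 3 of 8 gastric genes (MUC5AC, MUC6 and TFF1) and 4 of 8 airway genes (MUC5B, MUC5AC, AGR2 and SPDEF) were listed. Of the marker lists of other cell types, 1 of 10 fibroblast genes, 1 of 10 immune genes, 1 of 8 endothelial genes and 1 of 8 neuroendocrine genes were listed. Of these 4 genes, the fibroblast marker COL1A1 was at 20.6 to 28.7 with VprBP shRNA and 23.6 to 25.4 with control shRNA, and the immune marker CD68 was at 25.6 to 26.9 with VprBP shRNA and 25.6 to 26.8 with control shRNA. The endothelial marker PECAM1 was at 22.6 to 24.0 in VprBP shRNA libraries and 53.0 to 55.2 in control shRNA libraries, and the neuroendocrine marker ENO2 was at 59.9 to 64.0 in VprBP shRNA libraries and 31.9 to 35.6 in control shRNA libraries. Their part in the results on mucus genes was not tested.

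The promoters of the genes give the sequence context of these differences, and RefSeq windows (GRCh38.p14) from 250 bases before to 50 after the transcript start were matched by symbol for 4 of the 8 genes. All 4 are shown because they had a window: the levels of FCGBP and DMBT1 were far lower with VprBP shRNA, and those of AGR2 and MUC1 were not. Capitals mark matches on either strand to 5 motifs. They are the core promoter box spelled TATAAA, the Sp1-type box spelled GGGCGG, the E-box spelled CACCTG, the forkhead motif spelled TGTTTAC and the motif of GATA factors spelled AGATAA. MUC5B, MUC5AC, MUC6 and TFF1 were not matched.
FCGBP, chr19:39934585-39934884, minus strand: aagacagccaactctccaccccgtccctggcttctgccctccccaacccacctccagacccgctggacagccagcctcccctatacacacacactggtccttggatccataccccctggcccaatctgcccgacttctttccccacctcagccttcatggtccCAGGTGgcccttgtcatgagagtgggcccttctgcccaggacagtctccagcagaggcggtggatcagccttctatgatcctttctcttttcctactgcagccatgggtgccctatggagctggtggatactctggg
DMBT1, chr10:122560504-122560803, plus strand: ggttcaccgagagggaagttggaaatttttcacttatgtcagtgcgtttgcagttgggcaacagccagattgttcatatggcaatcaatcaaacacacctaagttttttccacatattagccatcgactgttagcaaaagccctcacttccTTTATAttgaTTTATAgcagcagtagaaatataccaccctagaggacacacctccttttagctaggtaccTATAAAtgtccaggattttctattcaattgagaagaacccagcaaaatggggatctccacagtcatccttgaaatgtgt
AGR2, chr7:16804950-16805249, minus strand: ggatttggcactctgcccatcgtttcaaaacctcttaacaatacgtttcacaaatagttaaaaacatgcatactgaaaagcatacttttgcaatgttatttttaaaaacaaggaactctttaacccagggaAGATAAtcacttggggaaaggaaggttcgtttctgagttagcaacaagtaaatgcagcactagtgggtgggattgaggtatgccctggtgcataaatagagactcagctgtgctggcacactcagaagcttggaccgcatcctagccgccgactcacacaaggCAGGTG
MUC1, chr1:155192866-155193165, minus strand: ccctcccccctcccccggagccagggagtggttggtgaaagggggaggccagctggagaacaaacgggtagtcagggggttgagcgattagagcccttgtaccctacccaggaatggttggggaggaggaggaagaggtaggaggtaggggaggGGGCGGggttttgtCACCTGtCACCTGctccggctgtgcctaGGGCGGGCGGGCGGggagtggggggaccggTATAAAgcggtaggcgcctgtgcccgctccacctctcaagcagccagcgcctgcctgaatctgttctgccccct
FCGBP had 1 match, an E-box letter string that begins 87 bases before the start. DMBT1 had 3 TATAAA matches, the nearest at 29 bases before the start. AGR2 had a GATA match at 119 bases before the start and an E-box match at base 45 after it. MUC1 had 7 matches: 4 of the Sp1-type box, 3 of which overlap each other, 2 of the E-box, and 1 of TATAAA 24 bases before the start. A second, nearly identical MUC1 window starts 6 bases away and holds the same 7. Matches to different motifs overlapped 0 times. Of 35116 windows of the same length, 11.5% held TATAAA, 45.0% GGGCGG, 20.6% CACCTG, 3.42% TGTTTAC and 10.3% AGATAA. A match is a description of letters and not a site or a cause, and TGTTTAC, which had no match, is only not among the letters of these windows.

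The 3 gel-forming mucin genes had far lower signal in every VprBP shRNA library than in every control shRNA library. MUC5B, the main mucin of the airways and saliva, was at 72.8, 91.2 and 73.0 in the VprBP shRNA libraries, against 1088, 963 and 1096 in the control shRNA libraries. The lowest control shRNA library was 10.6 times the highest VprBP shRNA library, and 7.53% of the control level was measured with VprBP shRNA (79.0 ± 10.6 with VprBP shRNA and 1049 ± 74.5 with control shRNA, SD, n = 3 each, log2 difference -3.73). In bulk RNA of this kind, fewer cells that express a gene and less RNA per cell cannot be told apart. MUC5AC, the mucin of the gastric surface and of airway goblet cells, was at 9.64, 8.91 and 8.87 with VprBP shRNA, against 145, 141 and 152 with control shRNA. Its groups did not overlap either, with means of 9.14 ± 0.432 with VprBP shRNA and 146 ± 5.77 with control shRNA (SD, n = 3 each), and it was 16.0-fold lower, with a log2 difference of -3.93. The signal of MUC5B divided by that of MUC5AC was 7.55, 10.2 and 8.23 in VprBP shRNA libraries and 7.49, 6.84 and 7.20 in control shRNA libraries, not corrected for length. MUC6, the mucin of gastric glands, was at 0.0254, 0.192 and 0.0878 with VprBP shRNA, against 5.41, 3.71 and 3.84 with control shRNA. These are 1, 6 and 2 estimated reads with VprBP shRNA, against 176, 86 and 92 with control shRNA. VprBP shRNA libraries 1 and 3 are thus under the 3 reads that a count of 0 allows, and the pooled ratio of control to VprBP shRNA was 46.0 with an exact binomial 95% interval from 24.0 to 102, which covers counting error only.

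MUC1, which encodes a membrane-bound mucin that forms no gel, was higher with VprBP shRNA. It was at 4.43, 5.48 and 5.45 in VprBP shRNA libraries, against 2.24, 3.11 and 3.92 in control shRNA libraries. The groups did not overlap, but the lowest VprBP shRNA library was only 1.13 times the highest control shRNA library, and the means were 5.12 ± 0.600 with VprBP shRNA and 3.09 ± 0.839 with control shRNA (SD, n = 3 each), 1.66-fold higher. MUC1 had 124 to 174 estimated reads with VprBP shRNA and 72 to 94 with control shRNA, so its counting error is larger than that of MUC5B, which had 1662 to 2862 with VprBP shRNA and 22321 to 35400.4 with control shRNA. The direction goes against the reason for which the 8 genes were chosen.

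The genes of proteins secreted together with mucins had lower signal with VprBP shRNA, by different amounts. FCGBP, a large mucus protein with repeats related to those of mucins and of von Willebrand factor, was at 0.534, 0.865 and 0.922 in VprBP shRNA libraries, against 180.5, 174 and 177 in control shRNA libraries. These are 21, 27 and 21 estimated reads with VprBP shRNA, against 5872, 4026 and 4253 with control shRNA. Its mean was 0.774 ± 0.210 with VprBP shRNA and 177 ± 3.37 with control shRNA (SD, n = 3 each), and its log2 difference, -7.14, was the lowest of all 12227 genes. DMBT1, a scavenger receptor glycoprotein of saliva and mucosal surfaces that binds bacteria, was at 1.98, 1.92 and 2.06 with VprBP shRNA, against 34.4, 32.0 and 34.7 with control shRNA. The lowest control shRNA library was 15.5 times the highest VprBP shRNA library, with means of 1.99 ± 0.0708 for VprBP shRNA and 33.7 ± 1.49 for control shRNA (SD, n = 3 each) and a log2 difference of -3.78. TFF1, a small trefoil peptide secreted with MUC5AC in the stomach, was at 2.87, 3.88 and 4.26 with VprBP shRNA, against 13.3, 10.7 and 11.1 with control shRNA. Its groups did not overlap, with means of 3.67 ± 0.716 for VprBP shRNA and 11.7 ± 1.45 for control shRNA (SD, n = 3 each) and a log2 difference of -1.56. TFF1 thus kept 31.4% of the control level, where DMBT1 kept 5.91% and FCGBP 0.437%.

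AGR2, the isomerase of the endoplasmic reticulum that is needed in mice for intestinal mucin production, had nearly the same level in both groups. It was at 80.4, 74.8 and 78.0 with VprBP shRNA, against 85.1, 86.3 and 82.6 with control shRNA. The groups did not overlap, although the lowest control shRNA library was only 1.03 times the highest VprBP shRNA library, and the means were 77.7 ± 2.82 with VprBP shRNA and 84.7 ± 1.89 with control shRNA (SD, n = 3 each), which is 91.8% of the control level. Differences between the groups are common in these data: limma called 60.9% of all listed genes at an adjusted p under 0.05, 33% higher and 27.8% lower. In 29.6% of all listed genes every VprBP shRNA library was below every control shRNA library, and in 35.1% every one was above. The count of 7 of the 8 genes below and 1 above is therefore given beside the sizes and read no further.

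**Figure D1:**
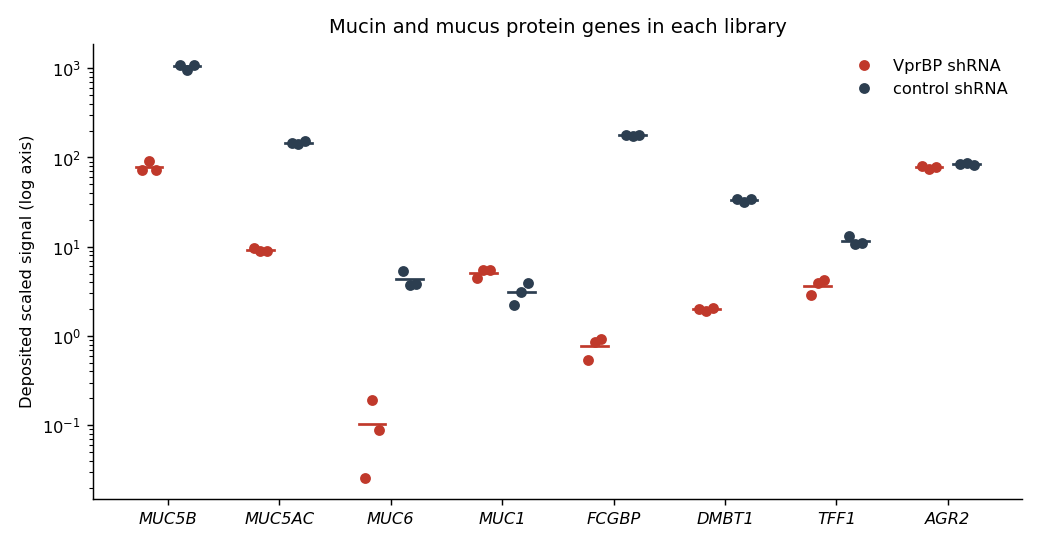
Deposited scaled signal (log axis) of the 8 genes, 1 point per library and a bar at the group mean, VprBP shRNA left of control shRNA. FCGBP shows the widest gap, at 0.774 with VprBP shRNA against 177 with control shRNA, MUC1 is higher with VprBP shRNA, and AGR2 is at 77.7 with VprBP shRNA against 84.7 with control shRNA.

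Set among all genes, the 8 genes spread over a wide range of differences. Their log2 differences ran from -7.14 to 0.67, with a median of -3.36, beside a median of 0.02 over all listed genes. Counted from the most negative, FCGBP ranked 1, MUC5AC 3, DMBT1 6, MUC5B 7, MUC6 12 and TFF1 80 of 12227, while AGR2 ranked 3866 and MUC1 11716. These ranks use log2(signal + 0.5), which shrinks the differences of low genes. By group means, MUC6 was 42.4-fold lower, on 9 estimated reads with VprBP shRNA. DMBT1 was 16.9-fold, MUC5AC 16.0-fold and MUC5B 13.3-fold lower. A mean at least 10-fold lower, without the added 0.5, was found for 5 of the 8 genes and for 0.115% of all genes (14 genes). At least 2-fold lower means were found for 6 of the 8 and for 2.05% of all. These shares describe the choice of the genes, since the choice was made on this difference.

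**Figure D2:**
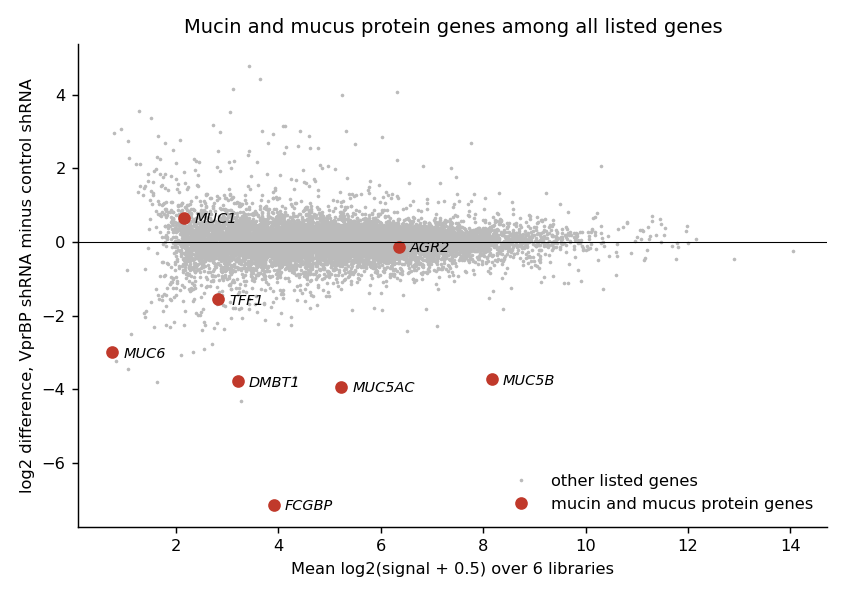
Log2 difference (VprBP shRNA minus control shRNA) against mean log2(signal + 0.5) for all 12227 listed genes in grey and the 8 genes in red. MUC5B stands at -3.73 among abundant genes, FCGBP at -7.14 is the lowest point, AGR2 lies near 0 at -0.12, and MUC1 lies above 0 at 0.67.

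Per kilobase of annotated exon, the genes also differed in level from each other. With lengths from GENCODE 29 for 12012 of the listed genes, MUC5B was at 4.25 per kb with VprBP shRNA and 56.4 per kb with control shRNA, which is rank 8033 from the highest with VprBP shRNA and rank 807 with control shRNA. FCGBP was at 0.0597 per kb, rank 12009, with VprBP shRNA and at 13.7 per kb, rank 3664, with control shRNA. MUC5AC was at rank 11837 with VprBP shRNA and 5473 with control shRNA, and DMBT1 was at rank 11978 with VprBP shRNA and 8097 with control shRNA. AGR2 was at 27.3 per kb, rank 1930, with VprBP shRNA and at 29.8 per kb, rank 1697, with control shRNA. TFF1 was at 6.66 per kb, rank 6377, with VprBP shRNA and at 21.2 per kb, rank 2445, with control shRNA. Per kilobase, MUC5B was thus the highest of the 8 genes in control shRNA cells and AGR2 in VprBP shRNA cells. Near the bottom in both groups were MUC6, at rank 12012 with VprBP shRNA and 11849 with control shRNA, and MUC1, at rank 11271 with VprBP shRNA and 11748 with control shRNA. Together the 8 genes made up 0.0171%, 0.0186% and 0.0171% of the listed signal in VprBP shRNA libraries, against 0.157%, 0.143% and 0.157% in control shRNA libraries.

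The listed genes around the mucin cluster had smaller log2 differences than the mucins in it. On hg38, MUC6 (ENSG00000184956.16) spans 1012823 to 1036718 of chromosome 11 (minus strand), MUC5AC (ENSG00000215182.8) spans 1157953 to 1201138 (plus strand), and MUC5B (ENSG00000117983.17) spans 1223066 to 1262172 (plus strand). The gap between MUC6 and MUC5AC is 121 kb and that between MUC5AC and MUC5B is 21.9 kb. TOLLIP, which encodes an inhibitor of Toll-like receptor signalling and lies 12.2 kb beyond MUC5B, was at 44.0, 45.1 and 39.7 with VprBP shRNA, against 45.0, 42.6 and 42.3 with control shRNA. It was not called (log2 difference -0.01, SE 0.06, limma adjusted p = 0.853). On the other side, AP2A2, a clathrin adaptor subunit gene 0.577 kb from MUC6, fell to 60.0 ± 1.00 with VprBP shRNA, against 84.5 ± 4.16 with control shRNA (SD, n = 3 each; limma adjusted p = 1.80e-07). PNPLA2, the adipose triglyceride lipase gene 187 kb from MUC6, was 1.85-fold lower (limma adjusted p = 1.33e-08).

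**Figure D3:**
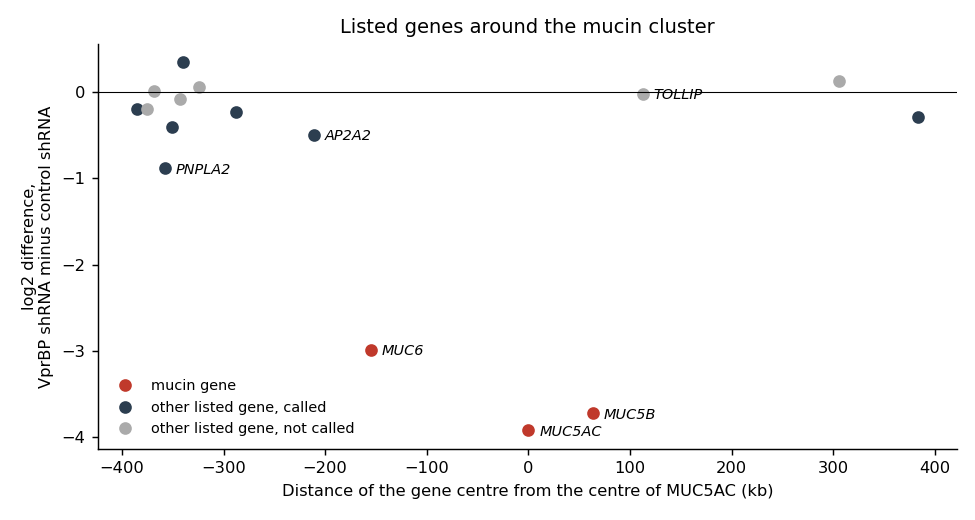
Log2 difference (VprBP shRNA minus control shRNA) of listed genes against the distance in kb of their centre from the centre of MUC5AC. MUC6, MUC5AC and MUC5B lie between -3.93 and -2.99, while the other listed genes shown, TOLLIP at -0.01 and PNPLA2 at -0.88 among them, lie above -1.

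The other 5 genes sit at separate loci. FCGBP (ENSG00000275395.7) spans 39863323 to 39934626 of chromosome 19 (minus strand), DMBT1 (ENSG00000187908.20) spans 122560665 to 122643736 of chromosome 10 (plus strand), and TFF1 (ENSG00000160182.3) spans 42362282 to 42366535 of chromosome 21 (minus strand). AGR2 (ENSG00000106541.12) spans 16791811 to 16833433 of chromosome 7 (minus strand), which reaches upstream of the RefSeq start shown above, and MUC1 (ENSG00000185499.17) spans 155185824 to 155192916 of chromosome 1 (minus strand). Within 200 kb of the 8 genes, 44 other genes were listed, of which 14 fell, 6 rose and 24 were not called, a share of 31.8% lower and 13.6% higher, beside 27.8% and 33% of all 12227 genes. Their median log2 difference was -0.01. Next to TFF1, ABCG1, which encodes a cholesterol exporter, was at 1.20, 0.930 and 0.835 with VprBP shRNA, against 11.4, 13.8 and 10.8 with control shRNA. It was 12.1-fold lower (log2 difference -3.07, SE 0.16, limma adjusted p = 8.13e-11) and lies 65.0 kb from TFF1, while SLC37A1 on the other side was not called (limma adjusted p = 0.651). HTRA1, a secreted serine protease gene 45.8 kb from DMBT1, was 2.01-fold lower (limma adjusted p = 1.03e-10). Around FCGBP, 1 of 5 neighbours fell, the nucleolar methyltransferase gene FBL, by 0.22 on the log2 scale (limma adjusted p = 0.000178). Around MUC1, 22 neighbours were listed, with 5 higher and 6 lower, among them FDPS (1.38-fold) and the noncoding RUSC1-AS1 (1.61-fold), which rose. RUSC1-AS1 overlaps FDPS on the opposite strand, so the reads of these genes may be mixed.

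Some of the 8 genes share sequence or overlap other genes. The repeated domains of MUC5B, MUC5AC and MUC6 resemble each other, as do the repeats inside FCGBP and DMBT1, so reads from such stretches may have been assigned to the wrong copy, and these levels are uncertain to that extent. MUC5B overlaps MUC5B-AS1 on the opposite strand, and without a stated strand setting the reads of both cannot be told apart. MUC1 overlaps the gene model AL713999.1 on its own strand.

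Genes of secreted mucosal proteins beyond the 8 genes were mixed. Of 60 such genes, 12 were listed, of which 7 fell and 2 rose (58.3% and 16.7%, beside 27.8% and 33% of all genes), with a median log2 difference of -0.26. CEACAM5, an adhesion glycoprotein of the gut surface also known as carcinoembryonic antigen, was at 1.55, 1.76 and 1.58 with VprBP shRNA, against 14.5, 16.4 and 15.1 with control shRNA. It was 9.39-fold lower (log2 difference -2.89, SE 0.12, limma adjusted p = 8.70e-12). TCN1, a vitamin B12 binder of saliva and stomach, was 3.74-fold lower (limma adjusted p = 2.22e-10), and PSCA, a surface antigen first described in prostate, was 3.30-fold lower (limma adjusted p = 2.82e-06). CST6, a secreted protease inhibitor, rose 4.05-fold, to 9.67 ± 0.216 with VprBP shRNA against 2.38 ± 0.292 with control shRNA (SD, n = 3 each; limma adjusted p = 5.51e-09), and LGALS3BP, a secreted glycoprotein, rose by 0.32 on the log2 scale. The 3 genes not called were PI3, C3 and LCN2, the lipocalin that binds bacterial siderophores, which was at 673 ± 14.4 with VprBP shRNA and 658 ± 9.01 with control shRNA (SD, n = 3 each). Trefoil genes other than TFF1, and AGR3, were not analysed here.

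Of 27 other mucin and mucin-like genes, 4 were listed, of which 3 rose and 1 fell (75% and 25%, beside 33% and 27.8% of all genes). PARM1 rose 1.91-fold (limma adjusted p = 2.64e-06), MCAM 1.30-fold and PODXL 1.22-fold, while CD164 was 1.37-fold lower (limma adjusted p = 4.90e-08). All 4 encode membrane glycoproteins, not gel-forming mucins, and their median log2 difference was 0.33.

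The genes of enzymes that build mucin sugars moved in both directions and mostly by small amounts. Of 64 genes, 40 were listed: 19 fell, 11 rose and 10 were not called, which is 47.5% lower and 27.5% higher, beside the 27.8% and 33% of all genes. Their median log2 difference was -0.16. CHST6, a sulfotransferase best known for sulfating keratan sulfate in the cornea, averaged 2.19 ± 0.239 with VprBP shRNA and 12.5 ± 1.31 with control shRNA (SD, n = 3 each). It was 5.68-fold lower (log2 difference -2.27, SE 0.13, limma adjusted p = 3.73e-10). ST6GAL1, a sialyltransferase that acts mainly on N-linked sugars, was 2.47-fold lower (limma adjusted p = 2.38e-11), and B4GALNT3 was 2.11-fold lower. ST3GAL1, which caps the core of O-linked chains with sialic acid, was at 418 ± 7.49 with VprBP shRNA and 638 ± 10.2 with control shRNA (SD, n = 3 each; limma adjusted p = 5.37e-11). It was named for that role after its value was seen. UAP1, which makes the sugar donor UDP-N-acetylglucosamine, rose 1.46-fold, B4GALT4 rose 1.45-fold and FUT3, which makes Lewis blood group sugars, rose 1.36-fold.

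The genes of granule release were called in both directions, and those of folding were more often higher than lower. Of 39 granule and exocytosis genes, 30 were listed, of which 12 fell and 11 rose (40% and 36.7%, beside 27.8% and 33% of all genes), with a median log2 difference of -0.08. RAB26 was 2.16-fold lower (limma adjusted p = 6.17e-07), the calcium sensor gene SYT7 1.78-fold lower and the RAB27 effector gene EXPH5 1.72-fold lower. RAB3B, a small GTPase gene of secretory vesicles, rose 2.23-fold (log2 difference 1.11, limma adjusted p = 1.19e-08), RAB27B rose 1.41-fold, and VAMP8, a fusion protein gene of mucin granules, rose 1.39-fold. Of 30 disulfide isomerase and secretory folding genes, the group to which AGR2 belongs by function, 25 were listed, of which 13 rose and 5 fell (52% and 20%, beside 33% and 27.8% of all genes), with a median log2 difference of 0.13. QSOX1, a sulfhydryl oxidase gene, rose 1.59-fold (limma adjusted p = 3.60e-10), DNAJC10 1.44-fold and the oxidase gene ERO1A 1.35-fold. ERN1 and XBP1, which encode a stress sensor of the endoplasmic reticulum and the factor it activates, were 1.45-fold and 1.26-fold lower, and QSOX2 was 1.37-fold lower.

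Genes of transcription regulators of secretory and epithelial cells were more often lower than higher. Of 47 genes, 30 were listed: 18 fell, 5 rose and 7 were not called, which is 60.0% lower and 16.7% higher, beside 27.8% and 33% of all genes, with a median log2 difference of -0.22. TP63, which encodes a basal cell regulator, was 3.66-fold lower (limma adjusted p = 8.05e-09), MYB was 2.08-fold lower (limma adjusted p = 3.14e-07) and ONECUT2 was 1.99-fold lower (limma adjusted p = 1.59e-06). STAT6, which transmits cytokine signals, and SOX21 rose 1.39-fold each. Regulators known from goblet and other mucosal epithelial cells were among those that fell. KLF4 was 1.56-fold lower (limma adjusted p = 6.74e-08) and ELF3 1.42-fold lower (limma adjusted p = 4.71e-08). SPDEF, which drives goblet cell differentiation in mice, was at 71.2, 71.4 and 69.4 with VprBP shRNA, against 86.6, 78.3 and 86.0 with control shRNA (1.18-fold lower, limma adjusted p = 0.000360), and FOXA1 was not called, at 139.6 ± 4.40 with VprBP shRNA and 145 ± 2.58 with control shRNA (SD, n = 3 each; limma adjusted p = 0.247). These 4 genes were named for their role after their values were seen.

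Genes of signalling pathways known to induce MUC5AC and MUC5B in airway cells were called in both directions, and not all of them encode inducers. Of 35 genes, 31 were listed, of which 13 rose and 10 fell (41.9% and 32.3%, beside 33% and 27.8% of all genes), with a median log2 difference of 0.03. IL6, an inflammatory cytokine, was at 54.7, 56.4 and 56.7 with VprBP shRNA, against 1.40, 1.86 and 1.42 with control shRNA, 35.9-fold higher (limma adjusted p = 9.95e-16). Its receptor genes IL6R and IL6ST rose 1.94-fold and 1.76-fold. IL13RA2, a decoy receptor gene for interleukin 13, was 2.21-fold lower, the EGF receptor ligand gene EREG 2.01-fold lower and the receptor kinase gene ERBB2 1.74-fold lower (limma adjusted p = 3.27e-09).

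**Figure D4:**
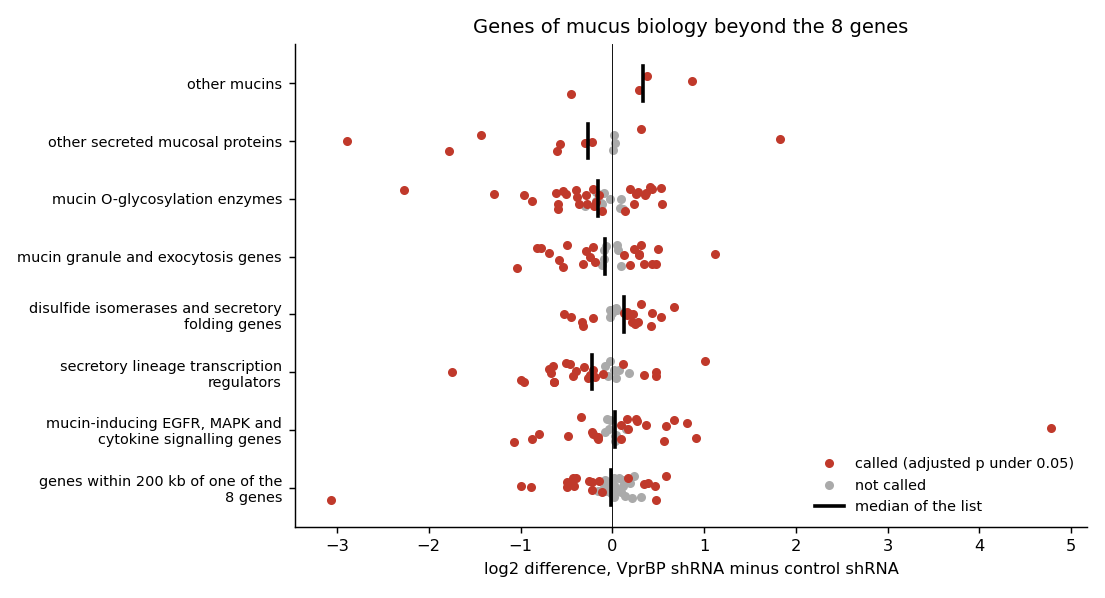
Log2 difference (VprBP shRNA minus control shRNA) of each listed gene, 1 point per gene, in the 7 lists of mucus biology and among neighbours within 200 kb, with called genes in red and the list median as a bar. The medians lie between -0.26 and 0.33, with CEACAM5, ABCG1 and CHST6 at the low end and IL6 at the high end.

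The genes with profiles most like MUC5B and FCGBP were sought by Euclidean distance between centred log2(signal + 0.5) values over the 6 libraries. The 8 genes were left out as candidates. Nearest to MUC5B among genes with a mean of at least 1 were FAM131B (0.27), MSMP, which encodes a small secreted protein first found in prostate tissue (0.27), and FABP4, a fatty acid binding protein gene (0.36). Of the 8 genes themselves, DMBT1 lay at 0.32 and MUC5AC at 0.41 from MUC5B, while FCGBP lay at 4.19. MSMP was at 5.12, 5.15 and 5.01 with VprBP shRNA, against 70.3, 68.1 and 72.6 with control shRNA. FABP4 had very low signal with VprBP shRNA, at 0.102, 0.224 and 0.0878, against 6.48, 5.74 and 7.09 with control shRNA. By group means FABP4 was 46.7-fold lower and MUC5B 13.3-fold lower. The log2 difference of FABP4 was only -3.44, since the added 0.5 shrinks differences of low genes, so its small distance does not mean a like fold. Outside the 8 genes, the nearest to FCGBP were PPP1R1B (3.49), FAM131B (4.03) and UGT1A6 (4.13). Reads of UGT1A6 cannot be assigned with certainty, because the genes of its locus share exons. The values are not scaled to a common spread, so the size of a difference enters the distance.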

How the data were processed

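RNA was sequenced from PC3 cells, 3 libraries with VprBP shRNA and 3 with control shRNA; per the labels' protocols, a SMARTER mRNA-Seq kit was used on total RNA. Per the submitters' processing notes, Partek and hg38 were used, with aligner, quantifier, strand setting and scaling not given in the sources used here. Values deposited are a scaled signal (estimated reads times 1 factor per library, read from the values: 55.5% to 65.0% were whole multiples of a step within 0.02 reads), although named as counts. The main tests therefore used no count model. Coordinates are those of the deposited table, with the end reduced by 1.

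Tests used limma (version 3.58.1, R version 4.3.3) on log2(signal + 0.5), with a trended prior, over all 12227 genes without a filter on low values, two-sided, with Benjamini-Hochberg adjustment; called means an adjusted p under 0.05. This scale understates changes of low genes. The fit was tested on simulated data. Folds are ratios of group means. Lists are described by counts and medians. Named genes were the 8 genes, DCAF1, up to 3 called genes per direction and list with a mean of at least 1, and the nearest profiles. Some genes that this rule names are not reported here. The members and lists were chosen with earlier results of these data known. Alternatives were 2 scalings, 2 pseudocounts, limma-voom on estimated reads, a filter at a mean of 5, a replicate block and each library left out.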

Additional observations from a re-analysis of the deposited data

How the results depend on the processing

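The 8 genes kept their direction under all alternatives in which they had a value. The size depended on the pseudocount where signal was low: the MUC6 log2 difference ran from -5.54 with limma-voom on estimated reads to -2.26 with a pseudocount of 1, and that of FCGBP from -7.92 to -6.66. The median log2 difference of the 8 genes, -3.36, was -3.86 with a pseudocount of 0.1, -2.90 with a pseudocount of 1, -3.75 over the genes left by a mean of at least 5 (fewer genes, without MUC6 and MUC1), and -3.88 with limma-voom, which adds less to low values. All 645 values of the 50 named genes outside the 8 kept their direction and their side of the threshold. Of 247 counts and medians, 243 stayed within the limits of change used and 4 moved, which are the medians above. The replicate block gave 7042 called genes, against 7441; same-numbered libraries deviated from their group means with correlations of 0.03, -0.18 and -0.17, and 0 of 6 libraries correlated best with their own number, so the numbers were not used as pairs. Leaving out 1 library gave 6697 to 7405 called genes. Depth limits MUC6, with 9 estimated reads over the VprBP shRNA libraries.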
